A study of Rattus norvegicus with 6 samples.

Results

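Hox genes encode the homeodomain transcription factors that give cells of the trunk and limbs their address along the head-to-tail axis. In mammals they lie in 4 clusters, A to D, and are numbered from paralogue 1 at the 3′ end to paralogue 13 at the 5′ end. Low-numbered members are used toward the head and high-numbered members toward the tail, and cultured connective tissue cells keep much of the code of the place they came from. In mice, Hox10 genes suppress ribs in the lumbar region and Hox11 genes shape the sacral vertebrae, so the code bears on the vertebral column that holds the disc. No label names the spinal level the cells came from.

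The genes described here are the 35 rows, of 22573 gene rows used, whose symbol is Hox, a cluster letter from a to d and a number. They were chosen by symbol, so no measured value picked single genes, and genes at or near 0 were kept. The Hox clusters as a subject were picked with the strain against control results of these data known, so the values below describe these libraries and are no independent evidence. There were 7 members in cluster A, 10 in B, 9 in C and 9 in D. A further 4 genes of cluster A were not analysed here.

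RNA sequencing compared 3 libraries of cells under cyclic tensile strain with 3 control libraries. The cells were nucleus pulposus cells, from the gel-like core of the intervertebral disc, of Sprague Dawley rats. A Flexcell device stretched them by 18% at 0.2 Hz for 24 h. All 6 samples carry the same treatment text, and the controls are taken as unstretched from their class label alone. No label says whether replicates were separate animals or cultures, so every p-value speaks to the variation among these 6 libraries alone, which may be technical. Levels are the authors' FPKM, fragments scaled to transcript length and library size, and the read depth behind them is unknown. Across genes, log2 values correlated at 0.982 to 0.992 within the strain group, 0.988 to 0.991 within the control group and 0.921 to 0.960 between groups (Pearson's r over 10180 genes, a description).

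The label of the cells was checked against fixed markers. The notochordal markers Shh and Noto were listed at 0 in every library, and T (brachyury) reached at most 0.119 FPKM, whereas Acan averaged 38.6 ± 3.18 FPKM in strain libraries and 31.1 ± 10.6 FPKM in control libraries (SD, n = 3 each). In all, 8 members of this list lay below the tested level. Among them Krt18, Krt19 and Foxa2 reached at most 0.139, 0.0710 and 0.313 FPKM. Col2a1, also among them, averaged 0.898 ± 0.485 FPKM in strain libraries and 0.0423 ± 0.0294 FPKM in control libraries. Of 9 tested nucleus pulposus and notochord markers, 6 rose and 1 fell under strain (limma adjusted p under 0.05), where 35.4% of all tested genes were called, 16.4% higher and 19% lower. The 17 list members with a row, of 18 listed, summed to 116 to 120 FPKM in strain libraries and 74.0 to 98 FPKM in control libraries. Of 6 tested markers of annulus fibrosus, tendon and fibroblasts, 5 rose, and that list summed to 5177 to 6454 FPKM in strain libraries and 1949 to 2497 FPKM in control libraries. Most of that sum is Col1a1, at 5085 ± 533 FPKM in strain libraries and 1849 ± 275 FPKM in control libraries (SD, n = 3 each). Tnmd of the same list was listed at 0 in every library. Of 4 tested macrophage and leukocyte markers 1 rose and 2 fell. Lyz2 averaged 3.30 ± 1.62 FPKM in strain libraries and 0.249 ± 0.142 FPKM in control libraries, Cd68 0.633 ± 0.147 FPKM in strain libraries and 1.53 ± 0.42 FPKM in control libraries, and Adgre1 1.31 ± 0.10 FPKM in strain libraries and 3.71 ± 1.92 FPKM in control libraries (SD, n = 3 each). The 7 listed markers, most of whose sum is Cd14 (15.8 ± 0.29 FPKM in strain libraries and 14.5 ± 1.26 FPKM in control libraries, not called), summed to 20.1 to 23.3 FPKM in strain libraries and 17.5 to 24.1 FPKM in control libraries, with Ptprc at most at 0.0486 FPKM. No endothelial or cartilage endplate marker reached the tested level. Both tested neural and Schwann markers rose, and that list summed to 38.1 to 48.2 FPKM in strain libraries and 30.0 to 32.4 FPKM in control libraries. Most of that sum is S100b, at 39.2 ± 4.66 FPKM in strain libraries and 29.4 ± 1.21 FPKM in control libraries (SD, n = 3 each). The 1 tested muscle marker was not called. The part of these marker shifts in the Hox values below was not tested, and in bulk RNA fewer cells of a type and less RNA per cell cannot be told apart.

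Sequences are shown first for 2 miRNAs encoded inside clusters C and B and for 4 neighbouring promoters of cluster D. The miR-196 genes lie inside the Hox clusters, and miR-196 is known in mice to pair with Hoxb8 messenger RNA. In the RefSeq table of the GRCr8 rat assembly, Mir196a lies between Hoxc10 and Hoxc9, and Mir196c lies between Hoxb13 and Hoxb9. The mature 5p strands below are RefSeq's, written 5′ to 3′ with the seed (bases 2 to 8) in capitals. Mir196a (chr7:135988900-135988921, plus strand) and Mir196c (chr10:81727561-81727582, plus strand) share their seed, and differ outside it. The miRNAs themselves were not analysed here.
rno-miR-196a-5p: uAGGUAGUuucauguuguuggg
rno-miR-196c-5p: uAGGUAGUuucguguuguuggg

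The windows from 250 bases before to 50 bases after the RefSeq start site follow for the 4 tested genes of cluster D, which stand next to each other. Their log2 fold changes rise with paralogue number, and of the 4 only Hoxd8 was called. Capitals mark matches on either strand to CACGTG (an E-box, the motif that the clock factors CLOCK and BMAL1 and other bHLH factors bind), TAATTA (a homeodomain core), TGATNNAT (a Hox-Pbx site) and AGGTCA (a nuclear receptor half-site). All lie on the plus strand of chromosome 3 of GRCr8: Hoxd11 at chr3:79992144-79992443, Hoxd10 at chr3:80001697-80001996, Hoxd9 at chr3:80007756-80008055 and Hoxd8 at chr3:80014973-80015272.
Hoxd11: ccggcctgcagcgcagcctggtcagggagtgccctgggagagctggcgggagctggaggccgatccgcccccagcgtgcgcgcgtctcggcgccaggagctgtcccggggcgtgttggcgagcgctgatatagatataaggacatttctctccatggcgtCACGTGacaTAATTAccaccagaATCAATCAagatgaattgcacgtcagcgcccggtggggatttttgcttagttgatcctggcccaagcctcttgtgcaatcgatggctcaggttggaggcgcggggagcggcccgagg
Hoxd10: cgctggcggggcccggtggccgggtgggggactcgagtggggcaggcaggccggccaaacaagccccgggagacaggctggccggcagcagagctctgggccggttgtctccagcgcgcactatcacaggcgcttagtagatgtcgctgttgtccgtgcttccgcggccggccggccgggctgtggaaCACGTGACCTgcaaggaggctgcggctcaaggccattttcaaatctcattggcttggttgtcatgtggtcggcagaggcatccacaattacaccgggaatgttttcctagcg
Hoxd9: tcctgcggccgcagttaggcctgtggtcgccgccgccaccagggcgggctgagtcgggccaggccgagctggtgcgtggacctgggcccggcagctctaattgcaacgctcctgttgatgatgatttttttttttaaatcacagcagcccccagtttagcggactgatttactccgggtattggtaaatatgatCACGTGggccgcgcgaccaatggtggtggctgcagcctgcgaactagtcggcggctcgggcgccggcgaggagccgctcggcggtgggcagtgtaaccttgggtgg
Hoxd8: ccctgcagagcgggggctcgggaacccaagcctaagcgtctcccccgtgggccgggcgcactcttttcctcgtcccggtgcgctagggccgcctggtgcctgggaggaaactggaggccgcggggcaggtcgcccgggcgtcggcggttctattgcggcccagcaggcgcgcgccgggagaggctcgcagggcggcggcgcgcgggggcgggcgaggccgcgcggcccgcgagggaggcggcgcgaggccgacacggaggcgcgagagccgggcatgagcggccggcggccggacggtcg

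Hoxd9, Hoxd10 and Hoxd11 each hold 1 CACGTG, whose first base lies 56, 62 and 90 bases before the start site, and Hoxd8 holds none of the 4 motifs. In Hoxd10 the E-box overlaps the AGGTCA match, which is on the other strand. The Hoxd8 window is the richest of the 4 in G and C, at 79.0%, against 62.7% for Hoxd9, 64.7% for Hoxd10 and 62.3% for Hoxd11. Windows were found for 17 of the 35 members, of which 5 are tested genes. CACGTG occurs in 7 of these 17 genes (41.2%), against 6.42% of 33469 rat windows. The others that hold it are Hoxd1, Hoxd3, Hoxa4 and Hoxa7. The median over all rat windows is 51.7% G and C with 7 CG pairs, fewer than in each of the 4 printed windows. The motif itself holds a CG pair, and the shares given here were not adjusted for base content. TGATNNAT occurs in 4 of the 17 genes (23.5%) and 9.10% of all windows, AGGTCA in 3 (17.6%) and 16.2%, and TAATTA in 1 (5.88%) and 5.36%. A match describes letters only, and binding was not measured here.

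The cells of both groups expressed clusters B, C and D and held the 7 analysed members of cluster A low. Of the 35 members, 20 averaged 1 FPKM or more across all libraries and were tested: 8 of 10 in cluster B, 8 of 9 in C, 4 of 9 in D and 0 of 7 in A. A further 9 lay lower, and 6 stayed under 0.1 FPKM in every library. These 6 were Hoxa6, Hoxa7, Hoxa10, Hoxb1, Hoxd1 and Hoxd12, of which Hoxb1 and Hoxd12 were listed at 0 throughout. A listed 0 need not mean that a message was missing, since Calcoco2, a widely used gene beside cluster B, was also listed at 0 in every library. RefSeq's span of Hoxa3 overlaps Hoxa4 and Hoxa6, so fragments there could be divided between genes. Summed over these 7 members, cluster A reached 2.85 to 3.69 FPKM in strain libraries and 2.31 to 3.15 FPKM in control libraries. The other 4 genes of cluster A were not analysed here, so the level of the whole cluster is not known.

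Expression did not follow paralogue number alone. Cluster B was expressed from Hoxb2 to Hoxb9, cluster C in every member but Hoxc5 with its highest mean at Hoxc10, and cluster D in a block from Hoxd8 to Hoxd11, counting as expressed the tested genes. In strain libraries the highest means were those of Hoxb2 (17.3 FPKM), Hoxb9 (13.5), Hoxc10 (13.1), Hoxd9 (11.9) and Hoxc12 (11.5). In control libraries they were those of Hoxd9 (15.0 FPKM), Hoxd8 (14), Hoxb9 (12.6), Hoxc10 (10.4) and Hoxd10 (10.1). Each neighbouring pair in these 2 orders had overlapping libraries, so no single step in either order exceeds the spread. Averaged over the 6 libraries, Hoxb2 stood at the 65.6th percentile of the tested genes and Hoxc4 at the 1.85th, which places Hox messages from just above the middle of the expressed range down to its floor.

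**Figure D1:**
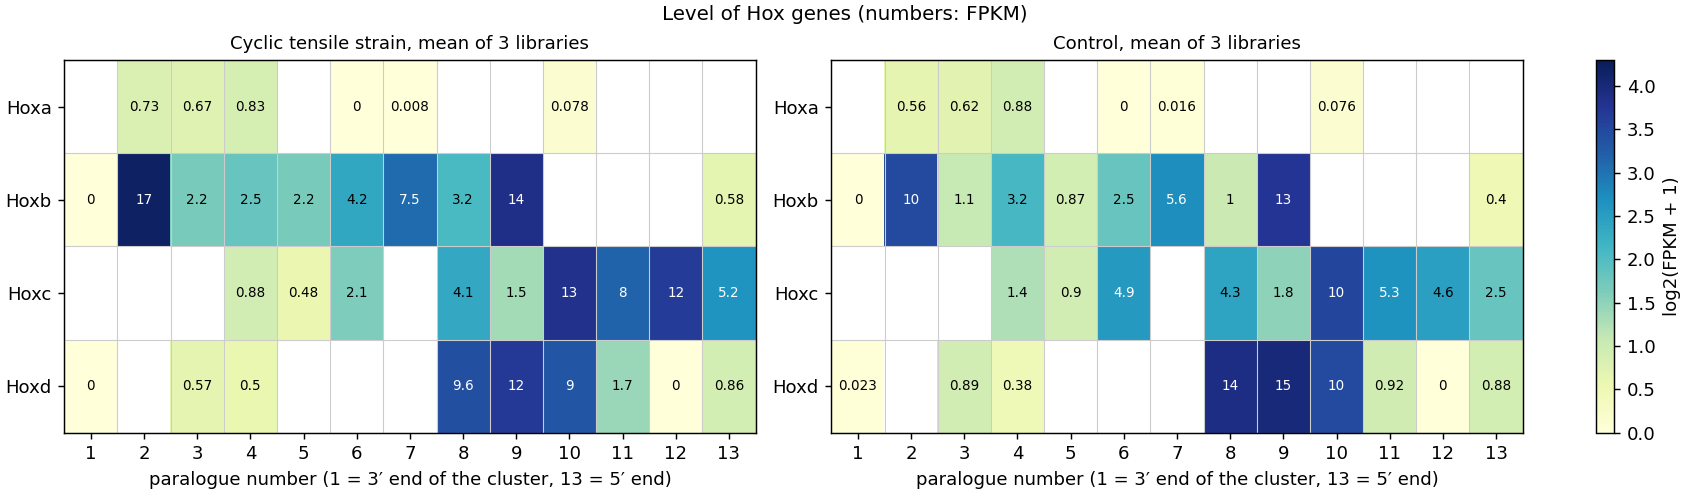
Mean FPKM of Hox genes by cluster (rows) and paralogue number (columns), in strain libraries (left) and control libraries (right), with colour on a log2(FPKM + 1) scale; 0 stands for values under 0.005, and white cells hold no gene shown here. The cluster A genes shown are pale, cluster B is filled from Hoxb2 to Hoxb9, and Hoxc11, Hoxc12 and Hoxc13 are darker in the strain map.

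Under strain 8 of the 20 tested Hox genes rose and 3 fell (limma on log2(FPKM + 1), Benjamini-Hochberg adjusted p under 0.05 over all 10180 tested genes). The rises were Hoxb2, Hoxb3, Hoxb5, Hoxb6, Hoxb8, Hoxc11, Hoxc12 and Hoxc13, and the falls were Hoxc4, Hoxc6 and Hoxd8. Called genes were thus 55.0% of the tested Hox genes and 35.4% of all tested genes, with 40.0% against 16.4% higher and 15.0% against 19% lower. The strain and control libraries did not overlap in 15 of the 20 (75.0%), and in 51.9% of all tested genes. The median log2 fold change was 0.34 over the tested Hox genes and -0.01 over all tested genes, and the median size regardless of sign was 0.49 and 0.24. Together the 35 members summed to 131, 133 and 148 FPKM in strain libraries and 112, 127 and 116 FPKM in control libraries, which is 0.0413% to 0.0431% of all FPKM in strain libraries and 0.0323% to 0.0383% in control libraries.

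**Figure D2:**
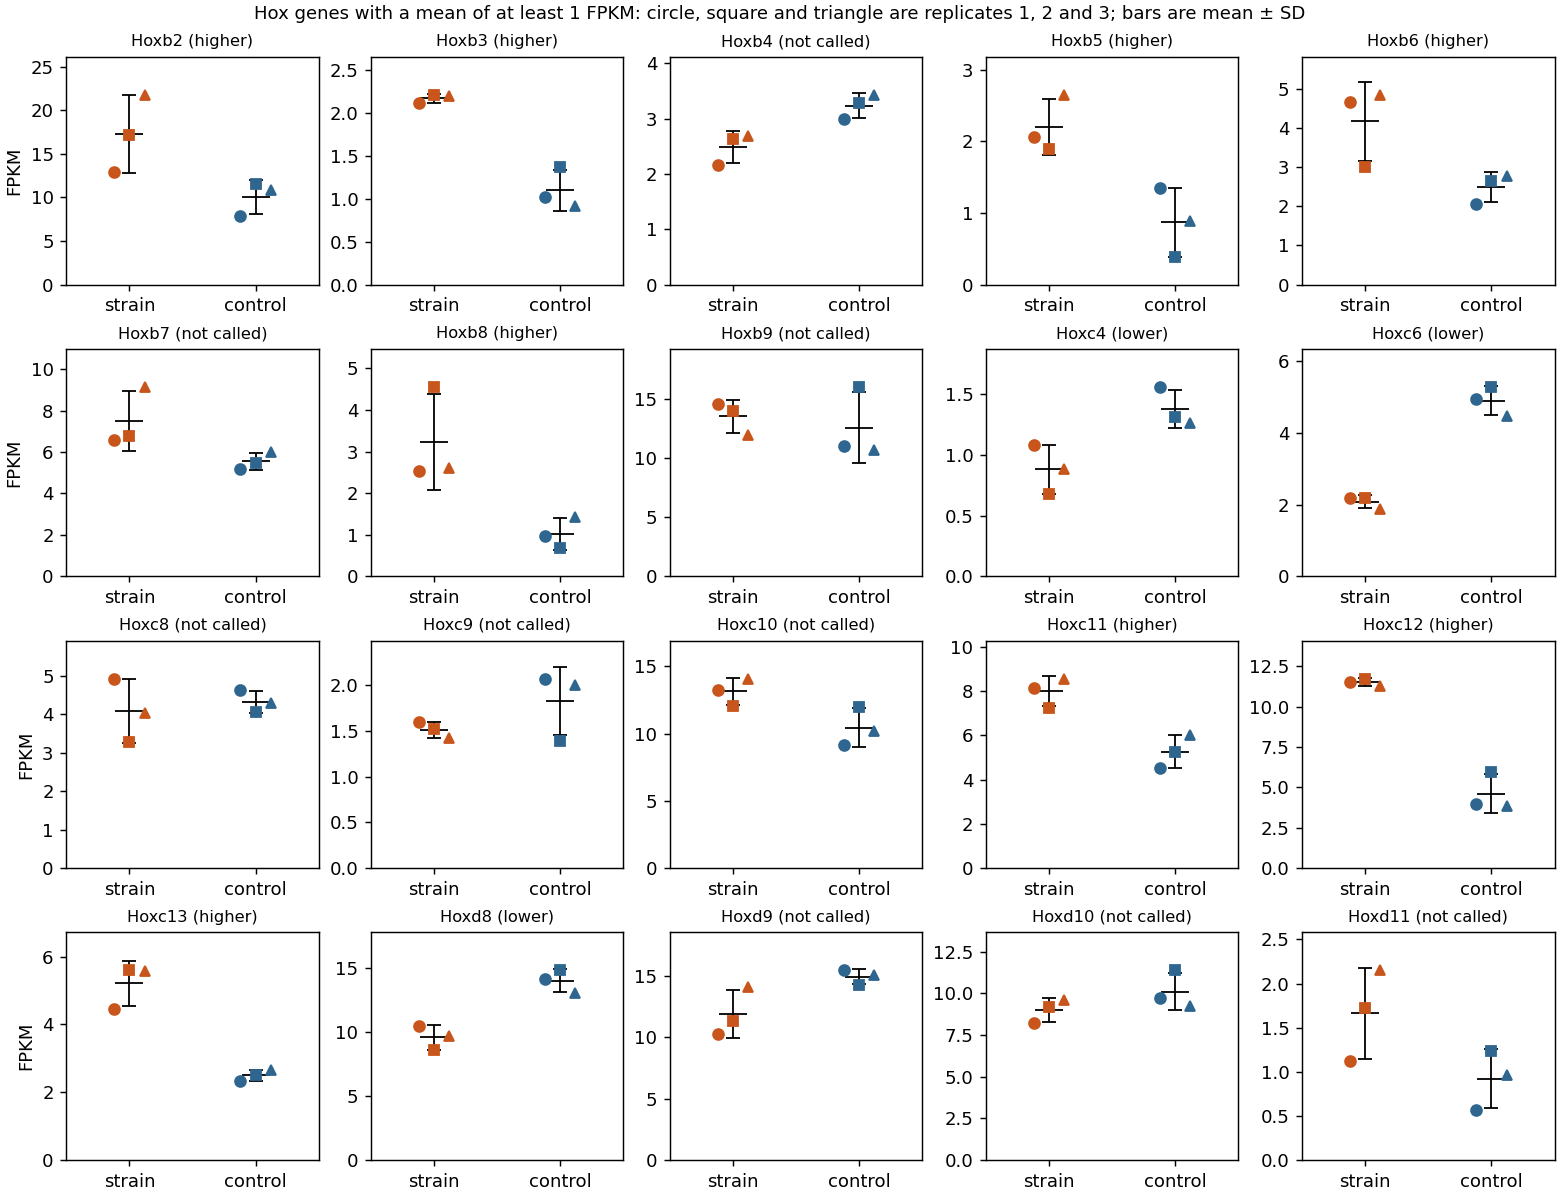
FPKM in each library for the 20 tested Hox genes, strain left of control, with mean ± SD (n = 3 each) and axes that start at 0; titles give the limma call. Hoxc12, Hoxc13 and Hoxb3 separate upward and Hoxc6 and Hoxd8 downward without overlap, while Hoxb9, Hoxc8, Hoxc9, Hoxd10 and Hoxd11 overlap.

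Cluster C divided by position: 3 of the 4 tested genes numbered 10 to 13 rose under strain, and 2 of the 4 tested genes numbered 4 to 9 fell. By the same call 16.4% of all tested genes rose and 19% fell. Hoxc12 stood at 11.6, 11.7 and 11.3 FPKM in strain libraries, against 3.99, 5.99 and 3.82 FPKM in control libraries. Its fold over control was 2.51, with a log2 fold change of 1.18 ± 0.14 (SE) and a limma adjusted p = 0.00040, the largest log2 fold change among the tested members on this scale. With a pseudocount of 0.5 or 0.1 Hoxb8 was ahead (1.28 against 1.26, and 1.56 against 1.34), as it was without control replicate 3 (1.19 against 1.09). Hoxc13, which in mice is needed for hair and nail keratins, stood at 4.45, 5.60 and 5.59 FPKM under strain, against 2.32, 2.51 and 2.65 FPKM in control libraries. It rose 2.09-fold (limma adjusted p = 0.00069). Hoxc11, of the paralogue group that shapes the sacrum in mice, had 8.17, 7.25 and 8.57 FPKM under strain and 4.53, 5.26 and 6.0 FPKM in control libraries. It rose 1.52-fold (limma adjusted p = 0.0078), and every strain library lay above every control library for all of these genes.

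Hoxc10, a member of the rib-suppressing group, stood at 13.2, 12.1 and 14.1 FPKM in strain libraries and 9.13, 12 and 10.2 FPKM in control libraries. The groups just cleared each other, with control replicate 2 next to strain replicate 2, and the gene was not called (log2 fold change 0.31 ± 0.11 SE, limma adjusted p = 0.061). Without control replicate 2 the adjusted p was 0.029, and it was 0.069 to 0.21 without any other library.

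The largest fall was that of Hoxc6, whose paralogue group marks the step from neck to thorax in vertebrates. It stood at 2.2, 2.19 and 1.88 FPKM in strain libraries, against 4.95, 5.29 and 4.47 FPKM in control libraries. The control mean was 2.35 times the strain mean (log2 fold change -0.93 ± 0.10 SE, limma adjusted p = 0.00024), and the groups were far apart relative to their spread. Hoxc4 had 1.08, 0.679 and 0.884 FPKM under strain and 1.56, 1.31 and 1.27 FPKM in control libraries. Its strain mean was 0.883 FPKM, so it reached the tested level through its control libraries alone. It fell by 0.34 on the log2 scale with a limma adjusted p = 0.049, at the threshold. That call was lost in 9 of 14 alternatives, among them the removal of strain replicate 2 or 3 (adjusted p = 0.16 and 0.083) or control replicate 1, 2 or 3 (0.15, 0.079 and 0.078).

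Between these ends, Hoxc8 and Hoxc9, which pattern thoracic vertebrae and motor neurons in mice, were not called. Hoxc8 had 4.93, 3.27 and 4.04 FPKM in strain libraries and 4.64, 4.07 and 4.28 FPKM in control libraries. Hoxc9 had 1.60, 1.52 and 1.43 FPKM in strain libraries and 2.07, 1.40 and 2.0 FPKM in control libraries. Both overlapped (limma adjusted p = 0.66 and 0.33). Hoxc5, under the filter, had 0.451, 0.619 and 0.365 FPKM in strain libraries and 0.999, 0.597 and 1.10 FPKM in control libraries.

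Across the 8 tested genes of cluster C, Spearman's rho between paralogue number and log2 fold change was 0.93. It describes 8 neighbouring genes of the same 6 libraries and carries no p. In cluster D it was 1 over 4 genes, and in cluster B it was -0.12 over 8. RefSeq's span of Hoxc6 overlaps Hoxc5 and Hoxc4, and a noncoding transcript overlaps Hoxc11, so fragments there could be divided between genes. Hoxc8 is also listed as an older symbol of Hoxc9. Whether counting used strand is not given in the sources used here.

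**Figure D3:**
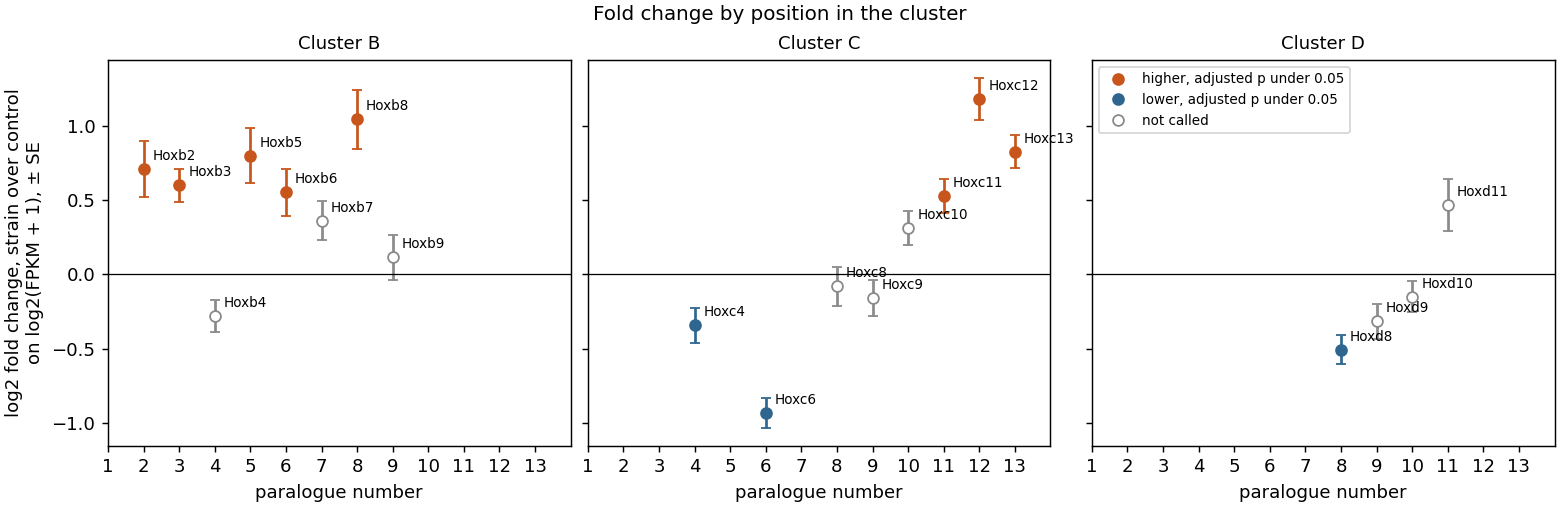
Log2 fold change of strain over control (± SE, on log2(FPKM + 1)) against paralogue number for the tested genes of clusters B, C and D. Values climb from Hoxc6 (-0.93) to Hoxc12 (1.18), with steps back at Hoxc9 and Hoxc13, and from Hoxd8 (-0.51) to Hoxd11 (0.47), while in cluster B all but Hoxb4 lie above 0.

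The sums restate the division of cluster C by library, from the same FPKM values. The 4 cluster C genes numbered 10 to 13, a grouping chosen after their values were seen, summed to 37.4, 36.7 and 39.5 FPKM in strain libraries and 20.0, 25.8 and 22.6 FPKM in control libraries. The 5 genes numbered 4 to 9 summed to 10.3, 8.28 and 8.59 FPKM in strain libraries and 14.2, 12.7 and 13.1 FPKM in control libraries. The 5′ block therefore held 78.5% to 82.1% of cluster C's summed FPKM in strain libraries and 58.4% to 67.0% in control libraries. The ratio of Hoxc12 to Hoxc6 was 5.26, 5.37 and 6.01 in strain libraries, against 0.807, 1.13 and 0.855 in control libraries. The pair was picked for its values, the largest rise and the largest fall on the log2(FPKM + 1) scale. Its ratio therefore had to separate the groups and adds no support.

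**Figure D4:**
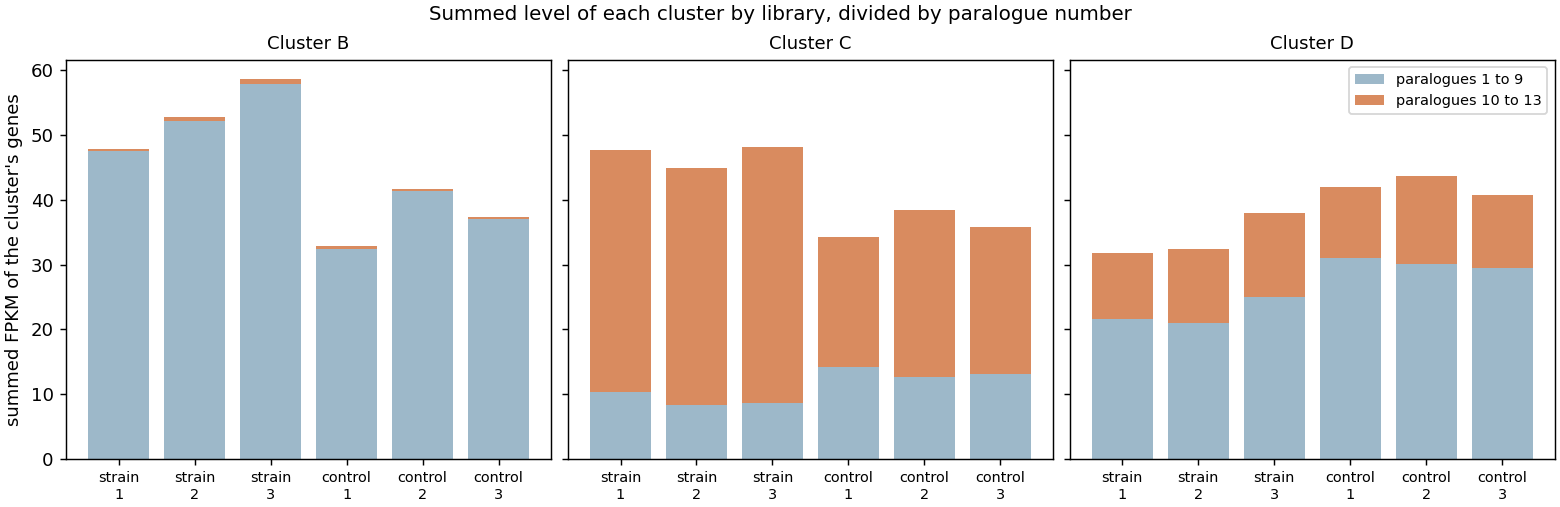
Summed FPKM of clusters B, C and D in each library, strain libraries left of control libraries, with bars from 0 divided into paralogues 1 to 9 and 10 to 13. The upper part of the cluster C bars is 36.7 to 39.5 FPKM in strain libraries and 20.0 to 25.8 FPKM in control libraries, and the cluster D bars are shorter under strain.

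Cluster B was higher under strain along most of its length, with 5 of 8 tested genes called and none of them lower. Of all tested genes, 16.4% were called higher and 19% lower. The cluster summed to 47.9, 52.8 and 58.7 FPKM in strain libraries, against 32.9, 41.7 and 37.3 FPKM in control libraries. Hoxb8, whose loss in mice causes excessive grooming, had the largest log2 fold change of the cluster. It stood at 2.52, 4.56 and 2.60 FPKM in strain libraries and 0.962, 0.680 and 1.44 FPKM in control libraries, a 3.14-fold rise (log2 fold change 1.04 ± 0.20 SE, limma adjusted p = 0.0041). Strain replicate 2 was the highest, and the groups stayed apart.

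Hoxb5, which helps to place the forelimb in mice, had 2.06, 1.89 and 2.65 FPKM in strain libraries and 1.35, 0.386 and 0.885 FPKM in control libraries. It rose by a log2 fold change of 0.80 ± 0.19 (SE, limma adjusted p = 0.011). Its control mean was 0.873 FPKM, so it reached the tested level through its strain libraries alone. Hoxb3, a hindbrain patterning gene in mice, had 2.11, 2.21 and 2.19 FPKM in strain libraries and 1.02, 1.37 and 0.911 FPKM in control libraries. It rose 1.97-fold (limma adjusted p = 0.0035), and its strain libraries were nearly level. These genes and Hoxb8 were called in all 14 alternatives in which they could be fitted.

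Hoxb2, also a hindbrain patterning gene in mice, had 12.9, 17.2 and 21.8 FPKM in strain libraries and 7.85, 11.6 and 10.8 FPKM in control libraries. It rose 1.71-fold (limma adjusted p = 0.019), with strain replicate 1 close to control replicate 2. The call was lost without strain replicate 2, strain replicate 3 or control replicate 1 (adjusted p = 0.054, 0.057 and 0.072). Hoxb6 had 4.66, 2.99 and 4.84 FPKM in strain libraries and 2.05, 2.63 and 2.77 FPKM in control libraries, with strain replicate 2 just above the controls. It rose 1.67-fold (limma adjusted p = 0.026), and lost the call without strain replicate 1 or 3 (0.073 and 0.081) or control replicate 1 or 2 (0.098 and 0.0502).

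The remaining cluster B genes were not called. Hoxb7 had 6.56, 6.75 and 9.15 FPKM in strain libraries and 5.18, 5.47 and 6.01 FPKM in control libraries (limma adjusted p = 0.056, with 0.045 without strain replicate 1 and 0.067 to 0.17 without any other library). Its groups did not overlap. Hoxb4, known for expanding blood stem cells, had 2.16, 2.63 and 2.69 FPKM in strain libraries and 3.0, 3.29 and 3.43 FPKM in control libraries (log2 fold change -0.28 ± 0.10 SE, limma adjusted p = 0.065). Hoxb9 had 14.6, 14 and 12 FPKM in strain libraries and 11, 16 and 10.7 FPKM in control libraries, and overlapped (limma adjusted p = 0.58). Hoxb13, beyond the gap at the 5′ end, ranged from 0.332 to 0.803 FPKM over the 6 libraries. The RefSeq transcript Hoxb5os overlaps Hoxb5 and Hoxb6, and another noncoding transcript overlaps Hoxb3, and reads of such partners cannot be told apart without strand.

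Cluster D was lower in sum in every strain library than in any control library, at 31.8, 32.4 and 38.0 FPKM in strain libraries, against 42.0, 43.7 and 40.7 FPKM in control libraries, and its called gene was Hoxd8. Hoxd8 had 10.5, 8.57 and 9.67 FPKM in strain libraries and 14.1, 14.8 and 13 FPKM in control libraries. The control mean was 1.46 times the strain mean (log2 fold change -0.51 ± 0.10 SE, limma adjusted p = 0.0048), with no overlap, and the call stood in all 15 alternatives. Hoxd9 had 10.3, 11.3 and 14.1 FPKM in strain libraries and 15.5, 14.3 and 15.1 FPKM in control libraries. Strain replicate 3 lay just under the controls, and Hoxd9 was not called (limma adjusted p = 0.063, with 0.0067 without strain replicate 3 and 0.096 to 0.19 without any other library).

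Hoxd10, which with Hoxd9 guides hindlimb motor neurons in mice, had 8.20, 9.17 and 9.60 FPKM in strain libraries and 9.69, 11.4 and 9.24 FPKM in control libraries, and was not called (limma adjusted p = 0.30). Hoxd11, a sacral and forearm gene in mice, had 1.12, 1.72 and 2.15 FPKM in strain libraries and 0.566, 1.23 and 0.963 FPKM in control libraries. It overlapped only through strain replicate 1 and control replicate 2, and was not called (log2 fold change 0.47 ± 0.18 SE, limma adjusted p = 0.067). Its adjusted p was 0.023 without strain replicate 1 and 0.048 without control replicate 2, and it was 0.11 to 0.21 without any other library. Of the windows printed above, those of Hoxd9, Hoxd10 and Hoxd11 hold the E-box, and the log2 fold changes of these genes lie on both sides of 0.

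The members of cluster D under the filter included Hoxd13, the digit gene, at 0.606 to 1.19 FPKM over all libraries. Hoxd3 had 0.433, 0.552 and 0.720 FPKM in strain libraries and 1.06, 0.654 and 0.953 FPKM in control libraries. Hoxd4 had 0.477, 0.475 and 0.540 FPKM in strain libraries and 0.396, 0.310 and 0.439 FPKM in control libraries. It was the 1 member of the 15 untested ones whose groups did not overlap, where 51.9% of all tested genes did not. In the fit with no filter Hoxd4 was not called (limma adjusted p = 0.23). In cluster A, Hoxa2, Hoxa3 and Hoxa4 ranged from 0.416 to 1.12 FPKM with overlapping groups.

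Genes of the same paralogue number did not move as a group. In number 8, Hoxb8 rose, Hoxd8 fell and Hoxc8 was not called, and the ratio of Hoxb8 to Hoxd8 was 0.241, 0.532 and 0.269 in strain libraries against 0.0681, 0.0459 and 0.110 in control libraries. In number 6, Hoxb6 rose and Hoxc6 fell, with a ratio of 2.12, 1.37 and 2.57 in strain libraries against 0.415, 0.498 and 0.620 in control libraries. Both ratios pair a called rise with a called fall, so they restate those calls. Number 4 had Hoxc4 lower and Hoxb4 not called with a negative log2 fold change. Under the filter, Hoxd4 of the same number was higher in every strain library than in any control library, and Hoxa4 overlapped. In number 9 none of Hoxb9, Hoxc9 and Hoxd9 was called. The numbers 12 and 13 had only Hoxc12 and Hoxc13 above the filter, and Hoxc11 and Hoxd11 of number 11 both had positive log2 fold changes.

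Hox proteins bind DNA with partners of the TALE family, and of 7 tested partners 1 rose, 0 fell and 6 were not called, where 35.4% of all tested genes were called. Pbx2 averaged 12.4 ± 0.59 FPKM in strain libraries and 9.56 ± 1.54 FPKM in control libraries (SD, n = 3 each, limma adjusted p = 0.041), a call that was lost without any 1 of strain replicates 1 to 3 or control replicates 1 and 2 (0.074 to 0.13). Meis1, the most abundant partner, averaged 17.4 ± 1.95 FPKM in strain libraries and 20.0 ± 0.62 FPKM in control libraries and was not called (adjusted p = 0.15). Pbx3 was not called either (limma adjusted p = 0.98).

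Polycomb proteins keep Hox clusters silent and Trithorax proteins keep them active. Of 24 tested regulators 7 fell and 2 rose, beside 35.4% of all tested genes called, and without control replicate 1 only 5 were called. Suz12, a core subunit of Polycomb complex PRC2, averaged 8.72 ± 1.02 FPKM in strain libraries and 13.7 ± 0.34 FPKM in control libraries (SD, n = 3 each, limma adjusted p = 0.0022). Phc2, of PRC1, averaged 16.8 ± 1.29 FPKM in strain libraries and 24.8 ± 2.89 FPKM in control libraries (limma adjusted p = 0.0051). Kdm6b, the demethylase that removes the PRC2 mark, averaged 8.68 ± 0.19 FPKM in strain libraries and 13.5 ± 2.19 FPKM in control libraries (limma adjusted p = 0.0055). These 3 calls stood in all alternatives.

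Jarid2, a PRC2 partner, fell to 0.961 ± 0.092 FPKM in strain libraries, against 1.83 ± 0.42 FPKM in control libraries (limma adjusted p = 0.014, and 0.055 without control replicate 1). Ash1l, a Trithorax methyltransferase, averaged 8.36 ± 2.38 FPKM in strain libraries and 12.3 ± 0.41 FPKM in control libraries (limma adjusted p = 0.042). That call was lost without control replicate 1, 2 or 3 (0.091, 0.096 and 0.099). The methyltransferase gene Ezh2, the catalytic subunit of PRC2, was not called (2.2 ± 0.075 FPKM in strain libraries and 2.64 ± 0.62 FPKM in control libraries).

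Among 16 upstream axial signals and factors 6 were tested, and all 6 were called, 3 higher and 3 lower, beside 16.4% of all tested genes higher and 19% lower. Cyp26b1, which breaks down retinoic acid, a classic inducer of 3′ Hox genes, fell to 1.87 ± 0.12 FPKM in strain libraries, against 6.93 ± 1.85 FPKM in control libraries (SD, n = 3 each, limma adjusted p = 0.00034). The retinoic acid receptor gene Rara rose to 7.40 ± 1.46 FPKM in strain libraries, against 4.25 ± 0.28 FPKM in control libraries (limma adjusted p = 0.0046). Rarg rose too (0.027), but not without strain replicate 2 (0.061) or control replicate 1, 2 or 3 (0.080, 0.063 and 0.077). Gdf11, the ligand that sets the trunk-to-tail transition in mice, fell to 7.23 ± 0.59 FPKM in strain libraries, against 11.2 ± 1.44 FPKM in control libraries (limma adjusted p = 0.0051). Gata6, an endoderm and mesoderm factor, rose to 5.56 ± 0.32 FPKM in strain libraries, against 2.22 ± 0.14 FPKM in control libraries (limma adjusted p = 0.00012). The Cdx genes that open the clusters in the embryo were at most 0.191 FPKM, with Cdx4 listed at 0.

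Other factors that pattern limb and trunk had 7 rises and 2 falls among 14 tested, beside 16.4% of all tested genes higher and 19% lower. Meox2, a somite factor, averaged 11.1 ± 1.14 FPKM in strain libraries and 4.65 ± 0.91 FPKM in control libraries (SD, n = 3 each, limma adjusted p = 0.00042). The sclerotome factors Pax1, Pax9 and Nkx3-2 rose (limma adjusted p = 7.41e-05, 0.0020 and 0.0021). Irx3, a proximal patterning factor, fell to 3.81 ± 0.43 FPKM in strain libraries, against 8.81 ± 0.50 FPKM in control libraries (limma adjusted p = 0.00016). Hand2, a posterior limb bud factor, fell to 0.454 ± 0.279 FPKM in strain libraries, against 2.54 ± 1.11 FPKM in control libraries (limma adjusted p = 0.0051). The limb-type genes Tbx5 and Pitx1 were listed at 0 in every library and Tbx4 reached at most 0.0419 FPKM.

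**Figure D5:**
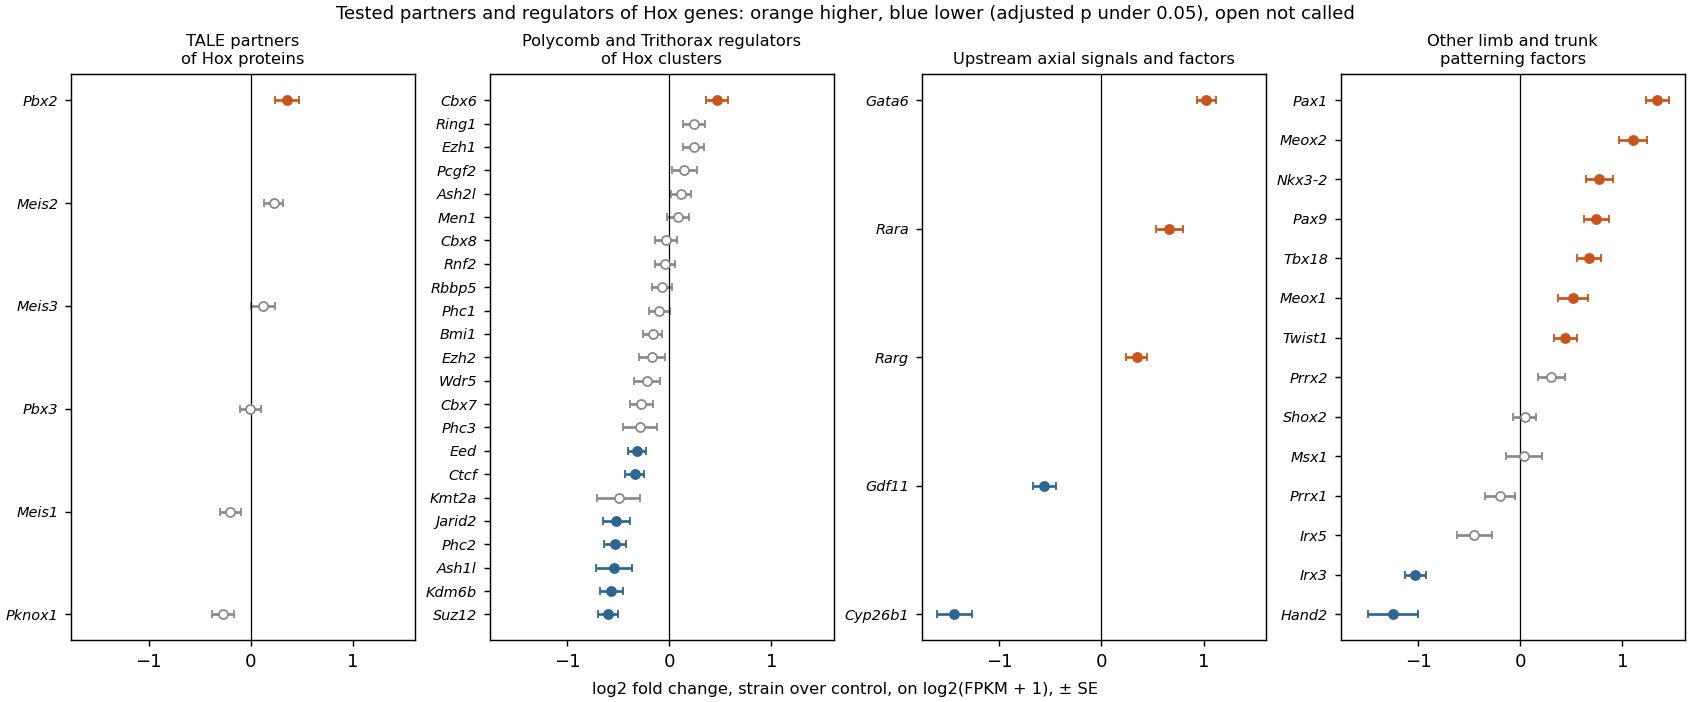
Log2 fold change of strain over control (± SE, on log2(FPKM + 1)) for tested members of 4 lists of Hox partners, chromatin regulators, upstream signals and other patterning factors. Of 24 tested Polycomb and Trithorax regulators, not all of which are shown, 7 were called lower and 2 higher, beside 35.4% of all tested genes called. In the panel of TALE partners only Pbx2 is called.

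Genes that flank the clusters had 2 rises and 2 falls among 12 tested, a share of calls close to the 35.4% of all tested genes. Hibadh beside cluster A rose and Smug1 beside cluster C fell (limma adjusted p = 0.023 and 0.042), and Cbx1 and Tax1bp1 made up the other calls (0.044 and 0.025). No call remained without control replicate 1 or 3, and 1 remained without strain replicate 1, strain replicate 2 or control replicate 2. Mtx2, next to the 3′ end of cluster D, and Skap2, next to that of cluster A, were not called (limma adjusted p = 0.33 and 0.76). Evx1 and Evx2, the homeobox genes at the 5′ ends of clusters A and D, were listed at 0 in every library. The median log2 fold change, -0.01 over all tested genes, was -0.17 over the tested Polycomb and Trithorax regulators, -0.11 over the upstream signals, 0.37 over the patterning factors, -0.06 over the flanking genes and -0.0040 over the TALE partners.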

How the data were processed

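The deposited files give 1 FPKM value per gene symbol and library. The authors' values were taken as FPKM from their range and from the submitters' processing notes, which name Cufflinks, Cuffdiff 2.2.1, DESeq, HISAT2 2.0.4 and cutadapt 1.9.3, and as a build only the human hg19, although the samples are rat. Annotation, strand and library scaling are not given in the sources used here. No depth can be had from FPKM, so no counting interval was computed. Rows with a calendar date for a symbol (25 names) and 1 unreadable row were left out.

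The 10180 genes that averaged 1 FPKM or more across all libraries were tested on log2(FPKM + 1) with limma 3.58.1 in R 4.3.3, with trend and robust moderation, two-sided, Benjamini-Hochberg adjusted over all of them. This scale understates changes of low genes. Among the called genes named here, Hoxb5, Hoxc4, Lyz2, Cd68, Hand2, Jarid2 and Nkx3-2 averaged under 1 FPKM in a single group. They passed the filter through the other group alone, and their calls carry that limit. The fit was checked on simulated data. Ratios are of mean FPKM, where both means reach 1. Members, lists and rules were chosen with earlier results of these data known: all Hox genes are named, and at most 6 called genes per list, largest fold change first. Some genes that this rule covers are counted but not reported here. Genes named outside that rule were chosen after their values were seen. Symbols matched RefSeq's GRCr8 table for 35 of 35 members, and its coordinates were used only for the printed sequences. Of 14 noncoding cluster transcripts listed, 0 were analysed here.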

Additional observations from a re-analysis of the deposited data

How the results depend on the processing

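The 15 alternatives covered pseudocount, filter, scaling, moderation, a replicate block and the removal of each library in turn. Of 289 gene values recomputed, 258 kept direction and side of the threshold, 18 lost a call, 12 gained one and 1 reversed. Hoxb3, Hoxb5, Hoxb8, Hoxc6, Hoxc11, Hoxc12, Hoxc13 and Hoxd8 were called in every alternative in which they were fitted. With a filter at 5 FPKM only 9 Hox genes were tested, of which 4 were called, 3 higher and 1 lower. Over all genes the same filter left 6572 tested and 2488 called, 1071 higher and 1417 lower. The upstream signals had 3 calls with this filter, since fewer genes were tested. Median scaling gave 2 calls among TALE partners. The flanking genes had 2 calls with no filter and 0 with the replicate block, and the cause was not tested.

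Leaving out 1 library gave 8 to 12 Hox calls, 0 to 1 among TALE partners, 5 to 10 among Polycomb and Trithorax regulators and 0 to 4 among flanking genes. Hoxc8 ranged from -0.20 to 0.04 on the log2 scale and changed sign without strain replicate 2 (0.038), and the cause was not tested. Over all genes 2375 were called without control replicate 1, against 3608 with all libraries. No label says whether replicate numbers pair the samples. Same-numbered deviations correlated at 0.033, 0.11 and -0.12, and differently numbered ones at -0.21 to 0.12, which shows no shared effect but cannot exclude a pairing. The replicate block moved the Hox calls to 12 and all calls to 3116. Without a filter Hoxb2, Hoxb6 and Hoxc4 lost their calls (limma adjusted p = 0.051, 0.058 and 0.060). Quantile normalization and median scaling each called Hoxb7 and Hoxc10 higher (0.031 and 0.022, and 0.032 and 0.029). Depth is unknown, so counting error of the low members cannot be given.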
